A study of Mus musculus with 16 samples.

Results

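The miR-23-27-24 clusters are a pair of related microRNA genes, and all 5 of their mature guide strands were measured in mouse liver tumours and control livers: mmu-miR-23a and mmu-miR-27a of cluster a, mmu-miR-23b and mmu-miR-27b of cluster b, and mmu-miR-24, which both clusters encode (mmu, for mouse, is left out from here on). They were taken by name from the 566 mouse miRNAs of an Agilent one-colour array, with earlier results of these data known. All samples came from male C3H/HeJ mice, an inbred strain prone to liver tumours, and 1 array was hybridised for each of 16 samples. The 7 Ctnnb1-mutated tumours carry a mutated beta-catenin gene and, like the 3 phenobarbital controls, came from mice fed phenobarbital, a liver tumour promoter. The 3 Ha-ras-mutated tumours carry a mutated gene of a small GTPase, and with the 3 untreated controls they came from mice without phenobarbital.

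Tumours were started with diethylnitrosamine, a liver carcinogen, injected at 10 or 90 µg per g when mice were 2 or 6 weeks old. Per the series' design text, feeding with 0.05% phenobarbital or control diet began 2 weeks later and went on for 28 to 36 weeks. The labels instead give 27 weeks of treatment, and their protocol has phenobarbital added to drinking water for 28 days. The dose, age and duration of each sample are not settled, nor is it stated which controls received the carcinogen, so "untreated" here means without phenobarbital. Nothing in the labels ties the samples to separate animals, and the p-values then measure only the spread between these samples. The slides held the groups unevenly: on slide 1 were Ha-ras tumour 1 and all 7 Ctnnb1 tumours, slide 2 held Ha-ras tumours 2 and 3, untreated control 1 and phenobarbital controls 4 and 5, and slide 3 held untreated controls 2 and 3 and phenobarbital control 6.

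An array detected 83 to 117 mouse miRNAs, and 96 were tested. The liver label was checked with 3 hepatocyte miRNAs, miR-122, miR-192 and miR-194, and all 3 were detected on all 16 arrays. Levels below are log2 values of spot intensity after each array was scaled to its 75th percentile of commonly detected probes. A log2 difference of 1 is a doubling.

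As background, each cluster is transcribed as a single primary RNA that is cut into hairpins, and each hairpin into a guide strand and a passenger strand, named with an asterisk on this array. A guide strand leads a silencing complex to transcripts that pair with its seed, bases 2 to 8, so miRNAs with the same seed share most predicted targets. miR-27 is known in liver as a repressor of lipid metabolism transcripts, miR-23 as a repressor of glutaminase in human cells, and the miR-23b cluster as a repressor of Smads in fetal mouse liver.

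RefSeq sequences on mouse build GRCm38.p6 were matched for 4 of the 5 members. Cluster a lies on the plus strand at chr8:84208518-84208921, where the hairpins Mir23a, Mir27a and Mir24-2 span 404 bases. Cluster b lies on the plus strand at chr13:63300484-63301275, where Mir23b, Mir27b and Mir24-1 span 792 bases inside Aopep, an aminopeptidase gene at chr13:62964893-63326096. The mature strands are shown because they decide which molecules the array can tell apart; the seed is in capitals and each reads 5′ to 3′.
miR-23a: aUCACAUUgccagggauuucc
miR-27a: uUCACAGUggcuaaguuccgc
miR-27b: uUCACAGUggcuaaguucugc
miR-24: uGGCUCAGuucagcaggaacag
miR-27a and miR-27b share their seed and differ at 1 of 21 bases, C19U, counted from 1 at the 5′ end of miR-27a. To what extent a probe of one also binds the other was not tested. miR-24 has the same sequence from both hairpins, so its level cannot be assigned to a cluster. The strands that could tell its hairpins apart are the passengers, which differ past their seed.
miR-24-1*: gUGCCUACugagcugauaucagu
miR-24-2*: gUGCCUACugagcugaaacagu
miR-24-1*, from cluster b, and miR-24-2*, from cluster a, were each detected on 0 of 16 arrays and stood at the floor of 4.64, the level to which lower signals were raised. The passengers miR-27a* and miR-27b* were likewise detected on 0 of 16 arrays, and miR-23a* and miR-23b* are not among the names on the array.

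In Ha-ras tumours the clusters moved in opposite directions. Relative to untreated controls, miR-23a and miR-27a rose 2.06-fold and 2.18-fold and miR-24 rose 1.51-fold, while miR-23b and miR-27b fell 1.44-fold and 1.48-fold. All 5 members were called at an adjusted p under 0.05 by limma, 3 higher and 2 lower, where 29.2% of the 96 tested miRNAs were called, 9.38% as higher and 19.8% as lower. The groups were spread unevenly over slides. With slide as a fixed block 2 of the 5 were called, miR-23a at 1.22 (limma adjusted p = 0.0295) and miR-27a at 1.45 (0.0266). miR-24 (0.162), miR-23b (0.138) and miR-27b (0.332) were not. Over all 96 tested miRNAs that fit called 5 as higher and 4 as lower. Slide 2 held 1 untreated control, and there the log2 changes were 1.25 for miR-23a, 1.49 for miR-27a and 0.72 for miR-24. On the same slide they were -0.47 for miR-23b and -0.30 for miR-27b. The groups did not overlap for any of the 5, as was so for 42.7% of the tested miRNAs, 16.7% with the tumours higher and 26% with the tumours lower. The median change was 0.60 over the members and -0.06 over all tested miRNAs, on the log2 scale.

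miR-23a read 8.11, 8.72 and 8.36 in the untreated controls and 9.60, 9.57 and 9.13 in the Ha-ras tumours. Every tumour lay above every control, with tumour 3 the lowest of its group. The limma change of its log2 level was 1.04 (SE 0.25, adjusted p = 0.00821). miR-27a, the other member encoded by cluster a alone, read 6.66, 7.37 and 7.31 in the controls and 8.41, 8.35 and 7.96 in the tumours. Its groups stood apart in the same way, with tumour 3 again lowest and control 1 the lowest control for both miRNAs. The limma change was 1.12 (SE 0.31, adjusted p = 0.0146).

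miR-24, the product of both clusters, read 8.04, 8.55 and 7.96 in the untreated controls and 8.81, 8.74 and 8.79 in the Ha-ras tumours. The tumours lay within a narrow range (8.78 ± 0.04, SD, n = 3) just above the highest control (8.18 ± 0.32, SD, n = 3). The limma change was 0.60 (SE 0.19, adjusted p = 0.0272), smaller in size than that of miR-23a or miR-27a, a difference between miRNAs that was not tested.

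miR-23b of cluster b read 8.07, 8.33 and 8.04 in the untreated controls and 7.67, 7.59 and 7.60 in the Ha-ras tumours. Every tumour lay below every control. The limma change was -0.53 (SE 0.13, adjusted p = 0.00821). miR-27b, which shares the seed of miR-27a, read 6.06, 6.42 and 6.50 in the controls and 5.76, 5.74 and 5.79 in the tumours. The tumours again lay below all controls, and untreated control 1 was the nearest to them. The limma change was -0.56 (SE 0.17, adjusted p = 0.0229).

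**Figure D1:**
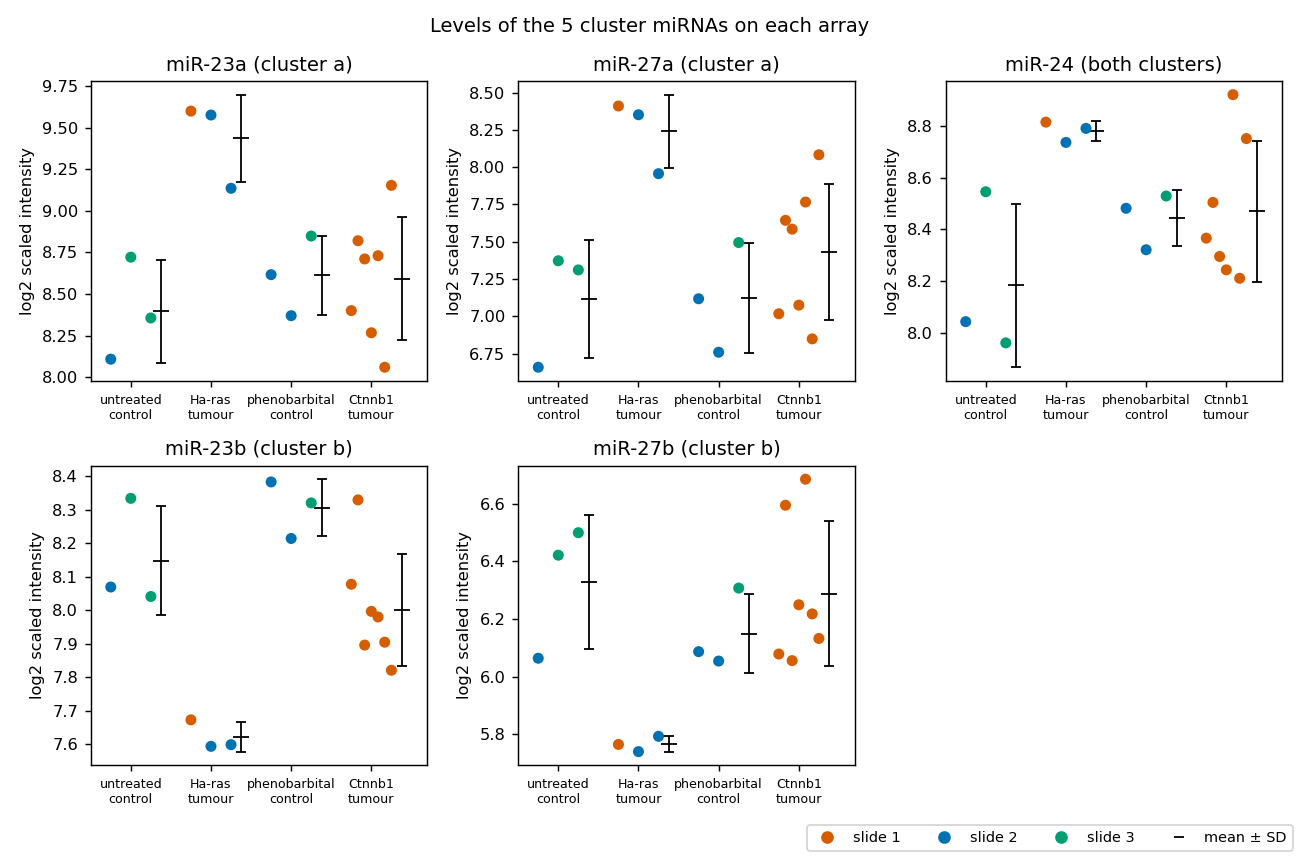
Log2 scaled intensity of each of the 5 miRNAs (y axis) on every array, by group (x axis); points are arrays coloured by slide, and the bar beside each group is its mean ± SD (n = 3, 3, 3 and 7). The 3 Ha-ras tumours lie above the untreated controls for miR-23a, miR-27a and miR-24 and below them for miR-23b and miR-27b, while the Ctnnb1 tumours overlap the phenobarbital controls in every panel.

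The call of miR-23a held with any of the 16 arrays left out, while miR-27a lost its call without untreated control 1 (limma adjusted p = 0.0592) or Ha-ras tumour 1 (0.0558), miR-23b without untreated control 2 (0.0502), miR-24 without untreated control 1 or 3 or any 1 Ha-ras tumour (0.0608 to 0.118), and miR-27b without untreated control 2 or 3 or Ha-ras tumour 1 or 2 (up to 0.0956). Scaling to all mouse probes, most of them undetected, moved the median change of all tested miRNAs from -0.06 to 0.28; miR-23b then turned to 0.04 and miR-27b stood at -0.12, which relative to that median are -0.24 and -0.40, against -0.47 and -0.51 in the main scaling.

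Markers of mesenchymal cells were lower in the same tumours as cluster b. Of 5 miRNAs of mesenchymal and smooth muscle cells, 3 were detected on any array and 1, miR-199a-3p, on all, while miR-214 and miR-145 were detected on 0 arrays. The scaled intensity of miR-199a-3p was 30.9 to 34.3 in Ha-ras tumours and 64.8 to 126 in untreated controls. The sum over the 3 was 80.8 to 84.2 and 115 to 204, but in Ha-ras tumours miR-143 and miR-199a-5p were at the floor of 24.96 on all 3 arrays, so that most of the sum there is the floor. miR-199a-3p changed by -1.51 on the log2 scale (limma adjusted p = 0.000509). miR-143 was detected on 3 of 3 untreated controls and 0 of 3 Ha-ras tumours. The summed endothelial markers miR-126-3p and miR-126-5p were 526.2 to 672 in Ha-ras tumours and 629 to 773 in untreated controls, with overlap, and those of hepatocytes were 17576 to 24416 and 19742 to 21344. The part of these cells in the change of miR-23b and miR-27b was not tested. In whole tissue, fewer cells of a type and less RNA per cell cannot be told apart.

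The difference between the clusters can be read within an array, where its scale cancels except for a probe at the floor. Since different probes bind with different strength, the level of this difference has no meaning of its own and only its change between groups is given. The log2 level of miR-23a minus that of miR-23b was 0.04, 0.39 and 0.32 in untreated controls and 1.93, 1.98 and 1.54 in Ha-ras tumours. The lowest tumour lay 1.15 above the highest control. The mean shift was 1.57, a 2.97-fold change in the ratio and 4.84 times the SD of 0.324 pooled over the 4 groups.

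The miR-27 pair gave a shift of similar size. miR-27a minus miR-27b was 0.59, 0.95 and 0.81 in untreated controls and 2.65, 2.61 and 2.16 in Ha-ras tumours. The gap between the groups was 1.21, and the mean shift 1.69 was a 3.22-fold change in the ratio and 4.70 times the pooled SD of 0.359. No p-value is given for these differences, since the pairs were set up with earlier results of these data known. On slide 2, where 2 Ha-ras tumours and 1 untreated control were scanned together, the shifts were 1.72 for the miR-23 pair and 1.79 for the miR-27 pair.

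**Figure D2:**
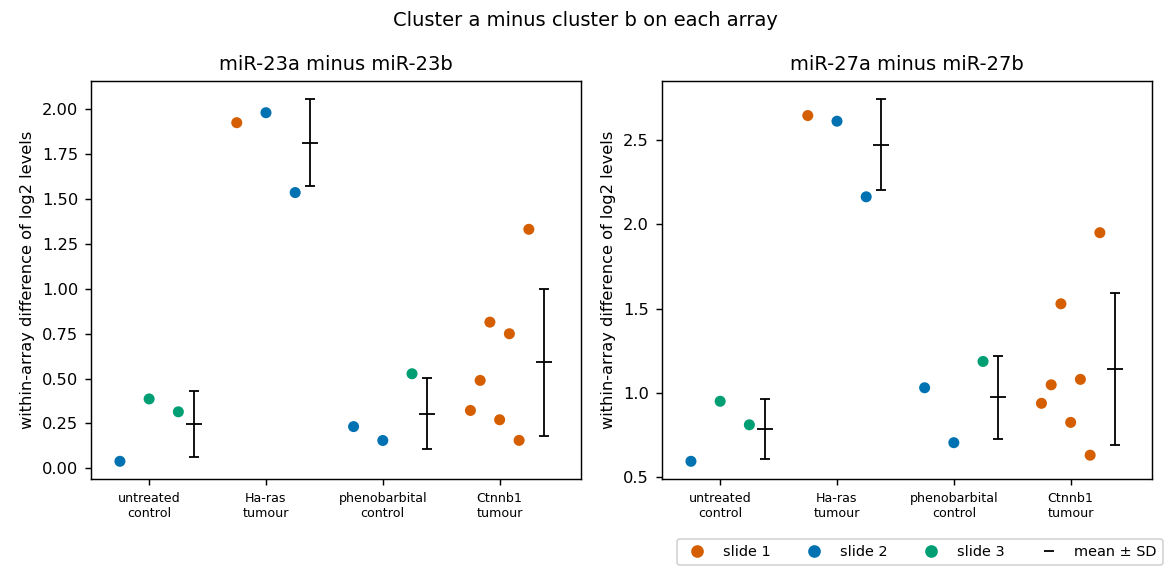
Within-array difference of log2 levels (y axis) for miR-23a minus miR-23b (left) and miR-27a minus miR-27b (right), by group (x axis); points are arrays coloured by slide, bars are the mean ± SD (n = 3, 3, 3 and 7). The 3 Ha-ras tumours, between 1.54 and 1.98 on the left and between 2.16 and 2.65 on the right, lie above all other arrays, and the highest Ctnnb1 tumour, at 1.33 and 1.95, comes nearest.

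Each member was read by 2 probes, and in the comparisons with Ha-ras tumours both probes of a member moved in the same direction. For Ha-ras tumours against untreated controls the brighter and the dimmer probe changed by 1.01 and 1.07 for miR-23a and by 1.13 and 1.12 for miR-27a. They changed by 0.55 and 0.64 for miR-24 and by -0.52 and -0.54 for miR-23b. All 10 probes had the direction of their miRNA. None overlapped between the groups, where 42.7% of the tested miRNAs did not overlap, and the share over all probes was not computed. The 2 probes of a member read the same samples, so they are not separate evidence. The exception in quality was the dimmer probe of miR-27b, detected on 12 of 16 arrays and raised to the floor on 5, among them all 3 Ha-ras tumours. Its change of -0.49 is therefore set by the floor, while the brighter probe, above the floor on all arrays, changed by -0.64.

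**Figure D3:**
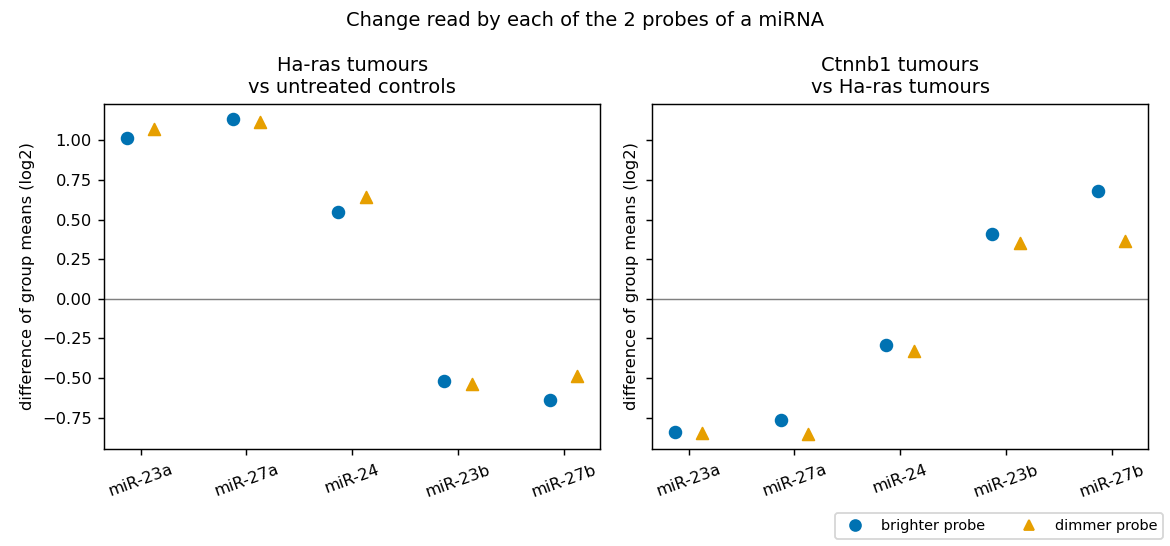
Difference of group means on the log2 scale (y axis) for the brighter (circle) and dimmer (triangle) probe of each miRNA (x axis), for Ha-ras tumours against untreated controls (left) and Ctnnb1 against Ha-ras tumours (right). Both probes of each miRNA lie on the same side of 0, and those of miR-27b on the right, 0.68 and 0.36, lie furthest apart.

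Other pairs of miRNAs with a common seed were read in the same way. Of 15 such pairs listed, 8 had both members detected on all arrays, and their within-array differences moved between Ha-ras tumours and untreated controls by -0.81 (miR-15a minus miR-15b) to 0.66 (miR-30a minus miR-30e). The median size was 0.31, and 3 of the 8 pairs did not overlap between the groups. The shifts of 1.57 and 1.69 of the miR-23 and miR-27 pairs lay outside that range, as a description of these pairs without a test. Among all 15 pairs, 1 moved further: miR-146a minus miR-146b shifted by -3.45, with miR-146b detected on 3 of 3 Ha-ras tumours and 2 of 3 untreated controls. The filter on detection leaves out pairs in which 1 miRNA is near the floor in a group, and the size of such a shift depends on the floor.

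In Ctnnb1 tumours, 0 of the 5 members were called by limma against their own phenobarbital controls, where 8.33% of the tested miRNAs were called, and 1 of 5, miR-23b, had an unadjusted p under 0.05, as had 21.9% of the tested miRNAs. All 5 overlapped between the groups, where 14.6% of the tested miRNAs did not. The median change was 0.03 over the members and -0.05 over all tested miRNAs.

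miR-23a read 8.62, 8.37 and 8.85 in phenobarbital controls and had a lowest, median and highest value of 8.06, 8.71 and 9.15 in Ctnnb1 tumours. The tumours reached below and above all controls, and the limma change was -0.02 (adjusted p = 0.964) with an unadjusted 95% interval from -0.47 to 0.43. miR-27a read 7.12, 6.76 and 7.49 in the controls and 6.85, 7.58 and 8.08 in the tumours. Here 4 of 7 tumours lay above all controls, with a limma change of 0.31 (adjusted p = 0.509) and an interval from -0.25 to 0.86. miR-24 read 8.48, 8.32 and 8.53 in the controls and 8.21, 8.37 and 8.92 in the tumours, a limma change of 0.03 (adjusted p = 0.930).

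miR-23b read 8.38, 8.21 and 8.32 in phenobarbital controls and 7.82, 7.98 and 8.33 in Ctnnb1 tumours. Of the 7 tumours, 6 lay below all controls and tumour 2 lay among them. The limma change was -0.31 (SE 0.11, adjusted p = 0.0850), and without tumour 2 it was -0.36 with an adjusted p of 0.0281. In the other 15 fits with 1 array left out it was not called (limma adjusted p from 0.0629 to 0.296). miR-199a-3p changed by -1.16 in the same comparison (limma adjusted p = 0.00187), and its scaled intensity was 33.9 to 69.2 in the tumours and 100.6 to 115 in the controls. The sums with miR-143 and miR-199a-5p, mostly at the floor in the tumours, were 83.9 to 119 and 159 to 169. miR-27b read 6.09, 6.05 and 6.31 in the controls and 6.06, 6.22 and 6.69 in the tumours, a limma change of 0.14 (adjusted p = 0.604). No slide held both Ctnnb1 tumours and phenobarbital controls, so slide and group cannot be told apart within a slide.

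The within-array differences overlapped too. miR-23a minus miR-23b was 0.23, 0.16 and 0.53 in phenobarbital controls and 0.16, 0.49 and 1.33 (lowest, median, highest) in Ctnnb1 tumours. miR-27a minus miR-27b was 1.03, 0.71 and 1.19 in the controls and 0.63, 1.05 and 1.95 in the tumours. The mean shifts of 0.29 and 0.17 were 0.88 and 0.47 times the pooled SD. The tumours were not alike: tumour 7 had the highest difference for both pairs, tumour 3 the next (0.81 and 1.53) and tumour 6 the lowest. Tumour 7 also had the highest miR-23a and miR-27a and the lowest miR-23b of the 7.

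The tumour types were then compared directly. Relative to Ha-ras tumours, Ctnnb1 tumours were 1.80-fold lower in miR-23a and 1.75-fold lower in miR-27a, and 1.30-fold higher in miR-23b and 1.44-fold higher in miR-27b. By limma 4 of the 5 members were called, 2 lower and 2 higher, where 30.2% of the tested miRNAs were called, 13.5% as lower and 16.7% as higher. The log2 changes were -0.84 for miR-23a (SE 0.21, adjusted p = 0.0134) and -0.81 for miR-27a (SE 0.26, adjusted p = 0.0315). They were 0.38 for miR-23b (SE 0.11, adjusted p = 0.0207) and 0.52 for miR-27b (SE 0.15, adjusted p = 0.0188). miR-24 was at -0.31 (SE 0.16, adjusted p = 0.170). A fixed slide block, which rests on the single Ha-ras tumour of slide 1, left 0 of the 5 called. Over all 96 tested miRNAs it called 4 as higher and 4 as lower. The limma adjusted p-values of the 4 members called in the main fit then ran from 0.0776 for miR-23a to 0.284 for miR-23b.

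The members differed in how far the tumours stood apart. For miR-23b and miR-27b all 7 Ctnnb1 tumours lay above all 3 Ha-ras tumours, as was so for 12.5% of the tested miRNAs, and 18.8% did not overlap in either direction. For miR-23a and miR-27a the groups overlapped only through Ctnnb1 tumour 7 and Ha-ras tumour 3, the tumours nearest to the other type. The leukocyte marker miR-223 was also higher in Ctnnb1 tumours, by 0.82 (limma adjusted p = 0.0188), while miR-142-3p, at 0.57, was not called (0.209). The hepatocyte miRNA miR-122 was lower, by -0.59 (limma adjusted p = 0.0407), while miR-194 at -0.51 (0.109) and miR-192 at -0.0036 (0.987) were not called. The sums of both lists overlapped between the tumour types. The part of these cells in the changes of the members was not tested. Tumour type, phenobarbital and the carcinogen's schedule cannot be told apart in this comparison. The 4 calls all ended without Ha-ras tumour 1, where 3 of the 96 tested miRNAs were called as higher and 8 as lower. They also ended without Ha-ras tumour 2, where 2 of the 96 were called as higher and 3 as lower. Scaling to all mouse probes took the median over the 96 from 0.08 to -0.32. Under that scaling miR-23b turned to -0.17 and miR-27b, at 0.10, lost its call (limma adjusted p = 0.697), while miR-24, at -0.86, gained one (0.0261); relative to the moved median they stood at 0.15, 0.42 and -0.54.

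The within-array differences were lower in Ctnnb1 than in Ha-ras tumours by 1.22 for the miR-23 pair, a 2.34-fold lower ratio, and by 1.33 for the miR-27 pair, a 2.51-fold lower ratio. Neither pair overlapped between the tumour types, with gaps of 0.20 and 0.21, although that of the miR-27 pair closed with the normexp background correction and with the authors' deposited values. On slide 1, with 1 Ha-ras tumour beside the 7 Ctnnb1 tumours, the shifts were -1.34 and -1.50. Among the 8 other seed pairs the shifts lay between -0.92 (miR-30a minus miR-30e) and 0.42 (miR-101a minus miR-101b), with a median size of 0.33. Of these 8 pairs, 2 did not overlap between the tumour types either. Among all 15 pairs, 1 again moved further: miR-146a minus miR-146b, by 3.73, with miR-146b detected on 3 of 3 Ha-ras tumours and 0 of 7 Ctnnb1 tumours, so that this size is set by the floor.

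**Figure D4:**
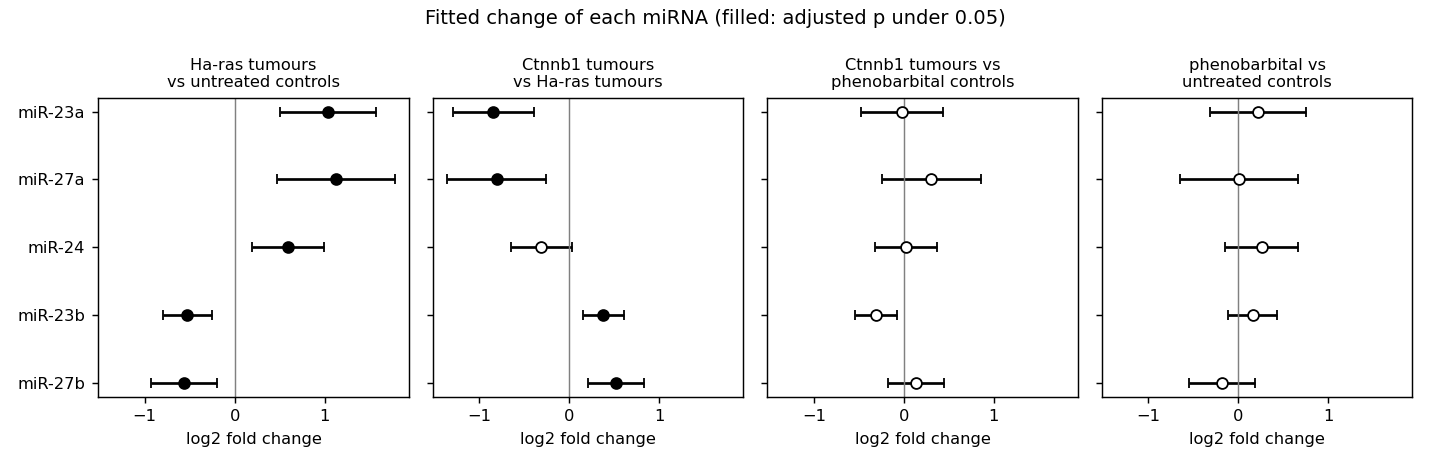
Fitted log2 fold change of each miRNA (x axis) with its unadjusted 95% interval, in 4 comparisons (panels); filled points have an adjusted p under 0.05. The filled points of miR-23a and miR-27a lie opposite to those of miR-23b and miR-27b in the left panels, where Ha-ras tumours enter, and all points are open in the others.

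A call against one set of controls and none against the other does not show that the tumour effects differ, so the difference itself was fitted: the change in Ctnnb1 tumours minus that in Ha-ras tumours, each against its own controls. By limma 0 of the 5 members were called, where 2.08% of the tested miRNAs were called. At an unadjusted p under 0.05 there were 3, miR-23a, miR-24 and miR-27b, where 17.7% of the tested miRNAs passed. The differences were -1.06 for miR-23a (adjusted p = 0.139), -0.82 for miR-27a (0.301), -0.57 for miR-24 (0.230), 0.22 for miR-23b (0.514) and 0.70 for miR-27b (0.139). Their unadjusted 95% intervals ran from -1.76 to -0.36 for miR-23a and from 0.22 to 1.18 for miR-27b, and included 0 for miR-27a and miR-23b. The within-array shifts differed between the tumour types by -1.28 for the miR-23 pair and -1.52 for the miR-27 pair.

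Phenobarbital alone, as far as the controls can show it, went with no called change. By limma 0 of 5 members and 0% of the tested miRNAs were called between phenobarbital and untreated controls, and 0 members had an unadjusted p under 0.05, against 6.25% of the tested miRNAs. All 5 overlapped, where 25% of the tested miRNAs did not. The changes were 0.22 for miR-23a, 0.01 for miR-27a, 0.26 for miR-24, 0.16 for miR-23b and -0.18 for miR-27b, and the 95% interval of miR-27a, the widest, ran from -0.65 to 0.66. The within-array differences shifted by 0.06 and 0.19, within the spread of the controls.

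Across the 4 groups, Ha-ras tumours had the highest mean log2 level of miR-23a, miR-27a and miR-24 and the lowest of miR-23b and miR-27b, and the order of the other groups differed between members. For miR-23a it was 8.40 ± 0.31 in untreated controls (SD, n = 3), 8.59 ± 0.37 in Ctnnb1 tumours (n = 7), 8.61 ± 0.24 in phenobarbital controls (n = 3) and 9.44 ± 0.26 in Ha-ras tumours (n = 3). The first 3 overlapped one another, and all Ha-ras tumours lay above both control groups. For miR-27a the means were 7.11 ± 0.40 in untreated controls, 7.12 ± 0.37 in phenobarbital controls, 7.43 ± 0.46 in Ctnnb1 tumours and 8.24 ± 0.25 in Ha-ras tumours, and only the step to Ha-ras tumours was called between neighbours. For miR-24 they were 8.18 ± 0.32, 8.44 ± 0.11, 8.47 ± 0.27 and 8.78 ± 0.04 in that order of groups, and no neighbours were called as different.

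In cluster b the Ha-ras tumours came first. For miR-23b the means were 7.62 ± 0.04 in Ha-ras tumours, 8.0 ± 0.17 in Ctnnb1 tumours, 8.15 ± 0.16 in untreated controls and 8.31 ± 0.09 in phenobarbital controls, where the first step was called, the last was not, and the step from Ctnnb1 tumours to untreated controls, which overlapped, was not fitted. For miR-27b they were 5.77 ± 0.03 in Ha-ras tumours, 6.15 ± 0.14 in phenobarbital controls, 6.29 ± 0.25 in Ctnnb1 tumours and 6.33 ± 0.23 in untreated controls, where the last 3 overlapped one another and all lay above the Ha-ras tumours. The dimmer probe of miR-27b was at the floor on 3 Ha-ras tumours and 2 phenobarbital controls. The floor therefore enters the means and SDs of these 2 groups.

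The miRNAs whose log2 levels followed each member most closely were ranked by Pearson's r over the 16 arrays, among the 67 other mouse miRNAs detected on all of them. The arrays share groups, slides and one scale, so r is a description only. The nearest to miR-23a were miR-21 (r = 0.77), miR-221 (0.57) and miR-103 (0.52), and the same miRNAs led for miR-27a, with 0.81, 0.66 and 0.46. miR-21, a miRNA raised in many tumours, rose by 1.28 in Ha-ras tumours against untreated controls (limma adjusted p = 0.00445) and was at 0.46 in Ctnnb1 tumours against theirs (adjusted p = 0.261). The nearest to miR-24 were miR-29b (0.74), miR-103 (0.64) and miR-21 (0.64).

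Cluster b had other neighbours. Those of miR-23b were miR-30b (r = 0.79), miR-199a-3p (0.79) and miR-10a (0.73), and those of miR-27b were miR-22 (0.76), miR-16 (0.64) and miR-15a (0.61). miR-10a, which lies in a Hox gene cluster, fell in both tumour types, by 1.07 in Ha-ras tumours (limma adjusted p = 0.000509) and by 0.88 in Ctnnb1 tumours (adjusted p = 0.00158), each against its own controls. Between the members, r was 0.95 for miR-23a with miR-27a, 0.61 for miR-23b with miR-27b, -0.51 for miR-23a with miR-23b and -0.28 for miR-27a with miR-27b. miR-24 stood with cluster a, at 0.81 with miR-23a and 0.79 with miR-27a, against -0.36 with miR-23b and -0.18 with miR-27b.

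**Figure D5:**
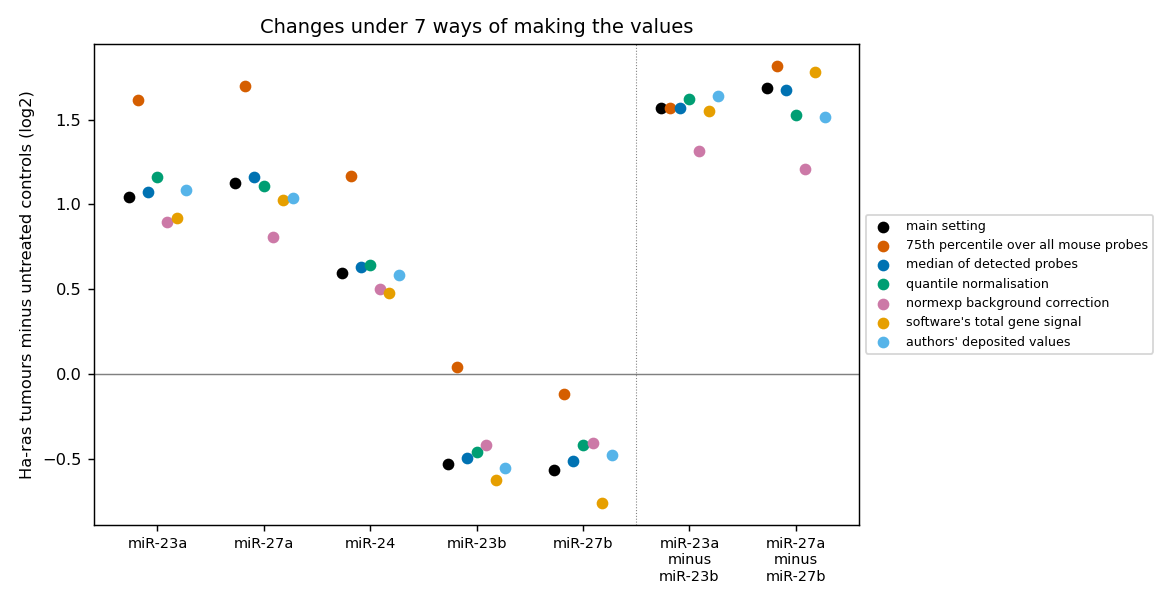
Change between Ha-ras tumours and untreated controls on the log2 scale (y axis) for each miRNA and for the within-array differences (x axis), under 7 ways of making the values from the same arrays (colours). miR-23b and miR-27b move to 0.04 and -0.12 when arrays are scaled to all mouse probes, while the within-array differences stay between 1.21 and 1.82.

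The plot of changes by scaling covers 7 ways of making the values, since a single member depends on the scale of its array. miR-23a, miR-27a and miR-24 stayed above 0 under all of them, and miR-27b below 0. miR-23b stayed below 0 under all but the scaling to all mouse probes. The within-array differences of both pairs kept the Ha-ras tumours above the untreated controls without overlap under all 10 sets of values made. Scaling to all mouse probes or to the median of detected probes divides an array by a single factor. That factor cancels in the difference except at the floor, so these sets add nothing separate to the main values here.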

How the data were processed

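MicroRNA arrays of 16 samples in 4 groups, taken from the sample titles, were analysed; the 5 members and all lists were chosen with earlier results of these data known. Per the file headers, Agilent Feature Extraction 10.7.3.1 produced the spot intensity, from 25 ng of labelled RNA, per the labels' protocols. The deposited intensity is background-subtracted and was not normalised between arrays, and 37.9% to 48.3% of an array's spots were at or below 0. A deposited table of 146 mouse miRNAs, on a log2 scale judged by its values, was used as an alternative; its normalisation is not given in the sources used, though R 2.14.1 is named in the submitters' processing notes.

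Control spots and spots flagged as outliers were left out, and 0 spots were saturated. Spots of a probe were averaged, scaled to the 75th percentile, per array, of the 117 mouse probes that all arrays detected (386 to 1248 before scaling), brought to a common level, raised to a floor of 24.96 and converted to log2. Probes of a miRNA were averaged on that scale. The median CV between spots of a probe was 4.98% to 7.87%, which limits the precision together with the number of arrays.

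Fitting was limited to the 96 miRNAs that all arrays of some group detected, and done in limma 3.58.1 (R 4.3.3), with 4 group means over all 16 arrays, and p-values were adjusted by Benjamini-Hochberg over the 96, with a threshold of 0.05. The fit was tested on simulated data. The rule for named miRNAs took the 5 members, their passenger strands, the 3 most alike by Pearson's r, the seed pairs with the largest shifts and the listed cell type markers. Of the markers, the leukocyte list had 3 of 5 detected on any array (miR-150 and miR-155 on 0), with sums of 231 to 430, 172 to 436, 346 to 399 and 256 to 487 in untreated controls, Ha-ras tumours, phenobarbital controls and Ctnnb1 tumours, and the 2 erythroid miRNAs summed to 1269 to 5006, 1459 to 5387, 3290 to 4576 and 1931 to 4168. Alternatives changed the scaling, background correction, filter, probe summary and slide or replicate terms and left out each array.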

Additional observations from a re-analysis of the deposited data

How the results depend on the processing

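Across 33 alternative settings, 866 of 980 values kept their direction and side of the threshold, or moved within the replicate spread. For counts of called members, a small move such as from 5 to 4 or from 4 to 3 was also taken as kept. The 980 include members not called in the main fit and fits without an array outside the comparison. Settings for the within-array differences on other scalings, slides, blocks, the dimmer probe and summed probe signals were chosen after seeing the data.

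Of the 5 members called in Ha-ras tumours against untreated controls, 3 were called with scaling to all mouse probes, 3 with normexp background correction, 2 with the authors' deposited values, 2 with slide as a fixed block, 0 on slide 2 only, and 2 to 5 with 1 array left out (2 without Ha-ras tumour 1; 3 without Ha-ras tumour 2 or any 1 untreated control). Of the 4 called in Ctnnb1 against Ha-ras tumours, 2 were called with normexp, 2 with deposited values and 0 with slide as a fixed block. With 1 array left out 0 to 4 were called (0 without Ha-ras tumour 1 or 2). In Ctnnb1 tumours against phenobarbital controls, slide as a random block called 1 (miR-23b, limma adjusted p = 0.0264), and leaving out 1 array called 0 to 1. For the difference between the tumour effects, the random block called 1 (miR-27b, limma adjusted p = 0.0466), and over the 96 it called 1 as higher and 3 as lower.

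Samples with the same replicate number deviated together or apart (correlations from -0.77 to 0.58). With so few samples, these cannot settle whether the numbers mark matched samples. The main fit used no pairing. The replicate block called 0 members in Ha-ras tumours against untreated controls (of the 96, 7 higher and 9 lower). It called 0 in Ctnnb1 against Ha-ras tumours (0 higher and 3 lower). These fits used fewer arrays, and why calls were lost was not tested.

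Over all 96 miRNAs, the main 9 higher and 19 lower calls in Ha-ras tumours became 12 and 0 with scaling to all mouse probes, 12 and 11 with quantile normalisation and 6 and 7 with normexp. The 16 higher and 13 lower in Ctnnb1 against Ha-ras tumours became 2 and 20 with scaling to all mouse probes.

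The miR-27 pair shifted by 1.21 and -0.96 with normexp in these comparisons. With 1 array left out, the miR-23 pair shifted by 1.46 to 1.71 and by -1.36 to -1.14, and the miR-27 pair by 1.59 to 1.84 and by -1.48 to -1.24.

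Scaling to all mouse probes turned miR-23b to 0.045 in Ha-ras tumours against untreated controls, -0.17 in Ctnnb1 against Ha-ras tumours, -0.043 in phenobarbital against untreated controls and -0.13 in the difference between the tumour effects. The other sign changes were of values near 0 that were not called. In Ctnnb1 tumours against phenobarbital controls, miR-23a turned to 0.20 with scaling to all mouse probes, 0.13 with the median of detected probes, 0.088 with quantile normalisation, 0.024 with deposited values, 0.050 with the random block and -0.141 to 0.0985 with 1 array left out. There miR-24 turned to -0.028 with the software's total gene signal and ranged from -0.0486 to 0.0694 with 1 array left out, and miR-27b turned to -0.037 with normexp. Between the control groups, miR-27a turned to -0.19 with scaling to all mouse probes, -0.0070 with the median of detected probes, -0.013 with quantile normalisation, -0.0522 with total gene signal, -0.083 with the random block and -0.22 to 0.19 with 1 array left out, and miR-27b turned to 0.0066 on slide 2 only.

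The signal of miR-27b limits its values: it was the dimmest member, with 1 of 2 probes at the floor on 5 arrays. The floor thus also enters the SE of its fitted changes and the pooled SD of the miR-27 pair.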
